A study of Mus musculus with 12 samples.

Results

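The genes of glycolysis, lactate export and hypoxia sensing were followed through 4 treatment groups of re-activated CD4+ T cells. The set was a list of 37 gene symbols, out of 56691 genes in the count table, and 35 of them had the 30 or more reads over all 12 libraries that the test required. *Hk3* with 13 reads and *Pfkfb2* with 23 reads did not reach that number, while *Eno2* with 65 reads and *Pdk2* with 126 reads were the lowest that did. Against isotype, co-blockade of PD-L1 and Lag3 (CB) raised the transcripts of *Hk2*, *Pfkl*, *Pfkp*, *Aldoa* and *Hif1a* (adjusted p under 0.05, edgeR). These were 5 of the 35 tested genes, with 0 called lower, where 2.33% of all genes tested were called higher and 1.96% lower. *Hk2* changed most among the 5, by a factor of 2.11, and alone was also called higher in CB than in either single antibody group. Both of these calls stood close to the threshold (adjusted p = 0.0495 over anti-PD-L1 and 0.0428 over anti-Lag3, edgeR). Leaving 1 mouse out lost them in 8 and 5 of 12 fits.

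All 12 mice were Tg4 *Nr4a3*-Tocky *Il10*-GFP animals, which carry a transgenic T cell receptor for myelin basic protein and a Timer reporter of *Nr4a3* that is first blue and then red. Every mouse received 4 mg/kg [4Y]-MBP peptide under the skin, then antibody 24 h later and, 30 min after that, 0.4 mg/kg of the same peptide, and spleens were taken 12 h later. The groups differed in the antibody (0.5 mg), which was a pool of rat IgG1 and rat IgG2a (isotype), anti-PD-L1, anti-Lag3 or a mix of the last pair (CB), with 3 mice and 3 libraries each. Live CD4+ T cells positive for both Timer colours were sorted, so that only responder cells were sequenced, from the 3′ end of the mRNA. Each condition was stained with its own CD4 fluorochrome for the sort, which cannot be told apart from the treatment. Cells were sorted in batches of 4 mice, multiplexed by these 4 fluorochromes. Which mice shared a batch was not given in the sources used here, and the fit of the 4 groups held no batch term. The paper ascribes the second principal component of its expression data largely to the sort batches. Mice of both sexes were typically 6 to 8 weeks old, and littermates of 1 sex were spread over the groups at random.

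Glycolysis splits glucose into pyruvate, first in steps that spend ATP (hexokinase, phosphofructokinase) and then in steps that return it (phosphoglycerate kinase, pyruvate kinase). T cells that are triggered through their receptor take up more glucose and turn much of the pyruvate into lactate, which leaves the cell through monocarboxylate transporters. HIF-1α, a transcription factor that prolyl hydroxylases mark for VHL-dependent destruction when oxygen is present, binds short elements near many glycolytic genes, and its own transcript is induced by T cell receptor signals.

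The start regions of the 5 genes that rose are shown because such an element can be looked for in them. The core of the HIF element, ACGTG or GCGTG, was searched on both strands in the 250 bases before each start of RefSeq (GRCm38.p6), which gave 53 promoters for 36 of the 37 genes. For each gene the start nearest to the 5′ end of the GENCODE gene is printed, 5′ to 3′ on the strand of the gene, with the core or its reverse complement in capitals.
Hk2 (chr6:82774455-82774704, - strand): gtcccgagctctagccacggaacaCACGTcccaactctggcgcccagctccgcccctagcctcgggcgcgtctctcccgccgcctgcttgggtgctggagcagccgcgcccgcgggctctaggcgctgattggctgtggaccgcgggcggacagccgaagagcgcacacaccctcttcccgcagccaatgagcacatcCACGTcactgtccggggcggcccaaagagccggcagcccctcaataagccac
Pfkl (chr10:78009808-78010057, - strand): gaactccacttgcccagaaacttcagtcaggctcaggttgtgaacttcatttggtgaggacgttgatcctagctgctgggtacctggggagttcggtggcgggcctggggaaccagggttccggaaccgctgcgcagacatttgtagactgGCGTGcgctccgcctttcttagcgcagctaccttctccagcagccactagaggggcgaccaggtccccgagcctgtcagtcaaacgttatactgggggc
Pfkp (chr13:6648772-6649021, - strand): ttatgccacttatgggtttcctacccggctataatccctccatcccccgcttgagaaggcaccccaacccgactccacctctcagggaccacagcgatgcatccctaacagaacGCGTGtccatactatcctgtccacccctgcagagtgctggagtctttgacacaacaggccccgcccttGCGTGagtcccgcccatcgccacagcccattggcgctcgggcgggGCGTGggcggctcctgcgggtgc
Aldoa (chr7:126800448-126800697, - strand): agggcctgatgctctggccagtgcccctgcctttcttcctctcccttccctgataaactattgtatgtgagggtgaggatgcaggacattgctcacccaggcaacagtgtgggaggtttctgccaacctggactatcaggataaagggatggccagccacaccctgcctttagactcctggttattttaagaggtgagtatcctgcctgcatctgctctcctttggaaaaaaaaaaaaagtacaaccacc
Hif1a (chr12:73907617-73907866, + strand): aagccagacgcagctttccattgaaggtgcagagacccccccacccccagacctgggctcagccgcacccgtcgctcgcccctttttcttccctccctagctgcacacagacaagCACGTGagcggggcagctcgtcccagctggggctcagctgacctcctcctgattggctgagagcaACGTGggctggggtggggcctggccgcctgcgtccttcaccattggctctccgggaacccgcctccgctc
The *Hk2* window held ACGTG at 226 and at 52 bases before the start, both on the other strand. The *Pfkl* window held 1 copy of GCGTG, at 99 bases, and the *Pfkp* window held 3, at 136, 68 and 23 bases. In *Hif1a*, whose printed start lay 6492 bases inside the GENCODE gene, ACGTG stood at 70 bases and again at 134 bases inside CACGTG, the E box letters, which contain ACGTG on both strands. The printed *Aldoa* window held neither core, and 2 of the 3 *Aldoa* promoters of RefSeq did. Printed starts of *Aldoa* and *Pfkl* lay 304 and 276 bases inside their GENCODE genes. The printed windows of *Hif1a*, *Aldoa* and *Pfkl* thus lay within the annotated genes. Either core was present in 42 of the 53 promoters of the set (79.2%) and in 38.6% of 32851 promoters of RefSeq. The median GC content was 60.4% in the promoters of the set and 52.4% in all. A match of 5 letters is a description of the window, not a binding site.

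Reads on genes lay between 16449370 and 22151025 per library (median 19176439), and values are given as counts per 1000000 reads on genes (CPM), scaled between libraries with TMM. The gene ENSMUSG00000119584 took from 14.3% (isotype mouse 1) to 21.9% (CB mouse 1) of these reads. Since reads came from 3′ ends, CPM of a gene is compared between libraries and not with that of other genes. In bulk samples, fewer cells of a type and less RNA per cell cannot be told apart. CB against isotype was tested with the quasi-likelihood test of edgeR on all 15138 genes with 30 or more reads, and genes with an adjusted p (Benjamini-Hochberg) under 0.05 are called higher or lower. Of all genes tested, 4.29% were called in that comparison, 2.33% higher and 1.96% lower. Of the 35 genes of the set, 5 were called higher and 0 lower by edgeR. An unadjusted p under 0.05 was found for 10 of the 35 and for 2256 of the 15138 genes tested. The median log2 fold change was 0.13 in the set and 0 over all genes tested. The 3 CB libraries lay above the 3 isotype libraries in 10 of the 35 genes and below them in 0, where 10.4% and 9.62% of all genes tested did so.

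**Figure D1:**
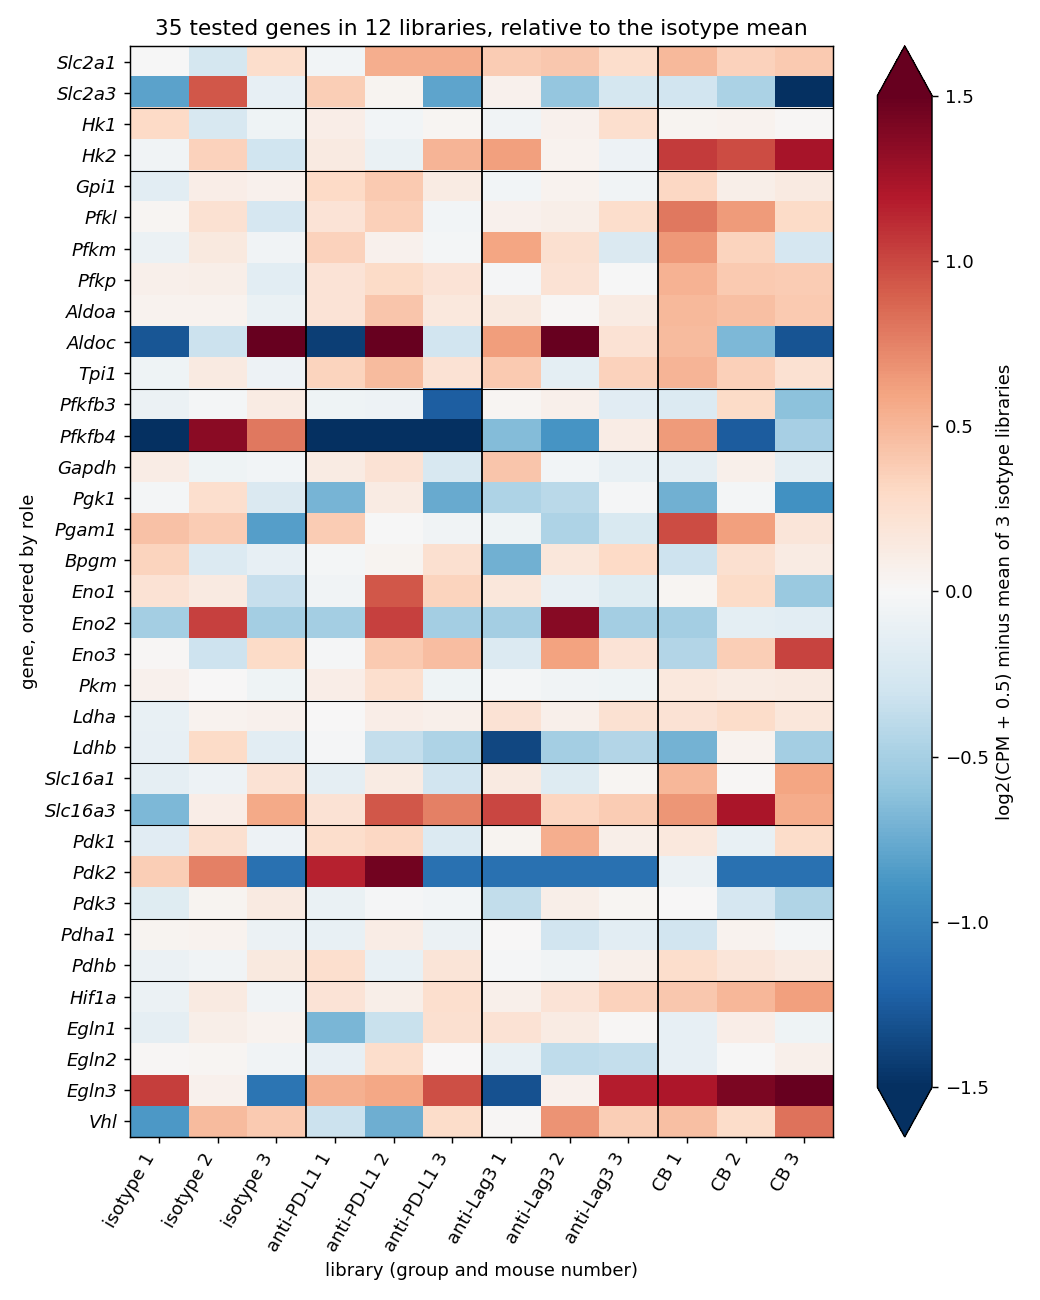
Colour shows log2(CPM + 0.5) of each of the 35 tested genes (rows, ordered by role) in each of the 12 libraries (columns) minus the mean of the 3 isotype libraries, with the scale ending at 1.5 in both directions. *Hk2*, *Pfkl*, *Pfkp*, *Aldoa*, *Hif1a* and *Egln3* are above the isotype mean in all 3 CB libraries, and the rows of *Aldoc*, *Pfkfb4*, *Eno2* and *Pdk2* swing widely and rest on few reads.

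Hexokinases phosphorylate glucose and so trap it in the cell. *Hk2* (ENSMUSG00000000628, GRCm38 chr6:82725025-82774454, minus strand) encodes the inducible form that is found at mitochondria. It stood at 34.7, 45.8 and 29.2 CPM in the isotype libraries, at 39.5, 33.4 and 51.2 CPM with anti-PD-L1, at 55.4, 37.5 and 34.1 CPM with anti-Lag3, and at 75.1, 71.6 and 85.1 CPM with CB. All 3 CB libraries were above all 9 others, while the 3 other groups overlapped one another. The log2 fold change of CB over isotype was 1.08 (SE 0.21, adjusted p = 0.00203, edgeR), that is from 36.6 ± 8.44 to 77.2 ± 7.03 CPM (SD, n = 3).

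*Hk1*, the constitutive hexokinase, was at 115, 79.0 and 89.0 CPM in isotype libraries and at 95.6, 96.4 and 94.1 CPM with CB. With anti-PD-L1 it was at 99.8, 90.7 and 94.9 CPM and with anti-Lag3 at 89.8, 97.5 and 111 CPM, so that all groups overlapped. Its log2 fold change, CB over isotype, was 0.01 with a 95% interval from -0.27 to 0.30 (adjusted p = 1). The reads of *Hk3*, the form of myeloid cells, were confined to 2 anti-PD-L1 libraries (8 and 5 reads) and were 0 in the other 10 libraries.

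The balance between the hexokinases was also read within each library, as the share of *Hk2* among the reads of the 3 hexokinase genes, which does not depend on scaling. It was 23.2, 36.7 and 24.7% in isotype libraries, 28.3, 26.9 and 35.1% in the anti-PD-L1 libraries, 38.2, 27.8 and 23.5% in those of anti-Lag3, and 44.0, 42.6 and 47.5% with CB. Every CB library lay above every other library. The mean share was 44.7% ± 2.51 with CB and 28.2% ± 7.41 with isotype (SD, n = 3, exact two-sided permutation p = 0.1, the smallest that 3 against 3 allows, 0.583 after adjustment over 35 such tests).

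**Figure D2:**
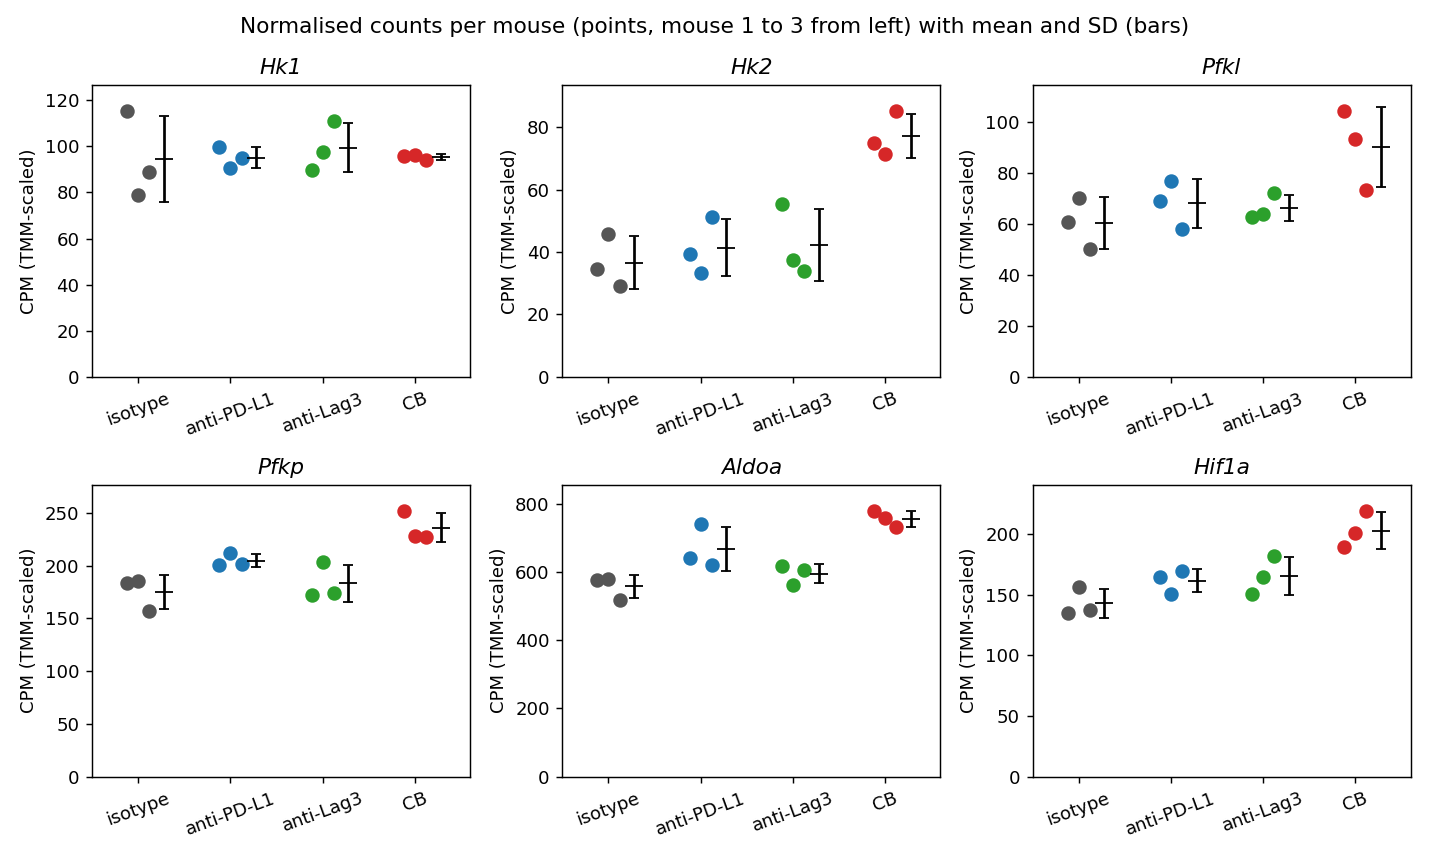
TMM-scaled CPM (y axes, from 0) of *Hk1*, *Hk2*, *Pfkl*, *Pfkp*, *Aldoa* and *Hif1a* for each mouse (points, 3 per group) with group mean and SD (bars). In all panels but *Hk1* the 3 CB points lie above the 3 isotype points, and for *Hk2*, *Pfkp* and *Hif1a* they lie above all 9 other points as well.

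Glucose enters T cells mainly through GLUT1 and GLUT3, encoded by *Slc2a1* and *Slc2a3*. *Slc2a1* was between 21.7 and 31.6 CPM in isotype libraries and between 33.3 and 36.8 CPM with CB, with no overlap, but its log2 fold change of 0.40 (SE 0.21) did not pass the test (adjusted p = 0.39). The anti-PD-L1 libraries (25.4 to 38.5 CPM) and the anti-Lag3 libraries (31.6 to 34.8 CPM) overlapped those of CB. *Slc2a3* had a log2 fold change of -0.95 (SE 0.49, adjusted p = 0.372), with isotype libraries between 5.54 and 19.5 CPM.

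Phosphofructokinase commits sugar to glycolysis, and its liver-type and platelet-type subunits were both called higher. *Pfkl* (ENSMUSG00000020277, chr10:77986947-78010083, minus strand) was at 60.8, 70.1 and 50.1 CPM in isotype libraries, at 69.0, 76.9 and 58.0 CPM with anti-PD-L1, at 62.8, 63.7 and 72.0 CPM with anti-Lag3, and at 104, 93.1 and 73.3 CPM with CB. The library of CB mouse 3 lay only just above the highest isotype and anti-Lag3 libraries and below one anti-PD-L1 library. The log2 fold change over isotype was 0.58 (SE 0.16, adjusted p = 0.0368, edgeR), and the adjusted p was 0.104 without isotype mouse 1, 0.189 without isotype mouse 3, 0.212 without CB mouse 1 and 0.105 without CB mouse 2. With only the isotype and CB libraries in the fit it was 0.052. *Pfkp* (ENSMUSG00000021196, chr13:6579768-6648777, minus strand) was at 183, 185 and 157 CPM in isotype libraries, at 201, 212 and 201 CPM with anti-PD-L1, at 172, 204 and 174 CPM with anti-Lag3, and at 252, 228 and 227 CPM with CB. All CB libraries were above all others, and the anti-PD-L1 libraries were above those of isotype. Its log2 fold change, CB over isotype, was 0.43 (SE 0.11, adjusted p = 0.0179, edgeR), and the adjusted p was 0.121 without isotype mouse 3 and 0.0989 without CB mouse 1.

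*Pfkm*, the muscle-type subunit, was at 7.50, 8.93 and 7.68 CPM in isotype libraries, at 10.3, 8.41 and 7.83 CPM in those of anti-PD-L1, at 12.3, 9.55 and 6.83 CPM in those of anti-Lag3, and at 12.8, 10.2 and 6.64 CPM in those of CB. The groups overlapped, and the log2 fold change of CB over isotype was 0.30 (SE 0.39, adjusted p = 0.829). *Pfkp* lies across *Pitrm1* on the opposite strand (46493 and 16723 reads), and *Pfkm* across *Senp1* (2104 and 21878 reads). Whether the counting used strand was not given in the sources used here, so the part of these partners in both values was not tested. No call was made on the balance of the subunits, with *Pfkp* at 70.4% ± 3.14 of the reads of the 3 genes with CB and 72.0% ± 1.66 with isotype (SD, n = 3, exact permutation p = 0.4, two-sided).

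*Aldoa* (ENSMUSG00000030695, chr7:126795234-126800751, minus strand) encodes aldolase A, which cuts the sugar into its triose phosphates. It was at 577, 580 and 518 CPM in isotype libraries, at 642, 743 and 622 CPM with anti-PD-L1, at 619, 564 and 607 CPM with anti-Lag3, and at 779, 760 and 733 CPM with CB. One anti-PD-L1 library reached the level of the CB libraries, and no other library did. The log2 fold change was 0.44 (SE 0.09, adjusted p = 0.00251, edgeR), and in CPM the mean went from 558 ± 34.7 to 757 ± 23.4 (SD, n = 3). *Aldoc*, the brain form, had 1, 9 and 67 reads in the isotype libraries, 0, 90 and 13 in those of anti-PD-L1, 31, 80 and 20 in those of anti-Lag3, and 26, 7 and 1 in those of CB, and was not called.

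*Tpi1*, which interconverts the triose phosphates that aldolase releases, lay between 206 and 238 CPM in isotype libraries and between 253 and 310 CPM with CB. These did not overlap, and the log2 fold change was 0.37 (SE 0.12), but the adjusted p was 0.106. *Gpi1*, the isomerase between hexokinase and phosphofructokinase, had a log2 fold change of 0.18 (SE 0.11, adjusted p = 0.44). Of the 7 tested genes between hexokinase and triose phosphate, 3 were called, and 6 had a log2 fold change above 0. Of all 15138 genes tested, 4.29% were called and 7388 were above 0.

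The PFKFB enzymes make or remove the sugar bisphosphate that switches phosphofructokinase on. The 2 tested genes of this family, *Pfkfb3* and *Pfkfb4*, were not called between CB and isotype. *Pfkfb3* lay between 13.2 and 25.0 CPM with CB and between 19.2 and 22.4 CPM with isotype. *Pfkfb4* had 0, 81 and 63 reads in the isotype libraries, 0, 0 and 1 in the anti-PD-L1 libraries, 18, 14 and 36 in those of anti-Lag3, and 56, 9 and 23 in those of CB, so that 1 isotype library stood with the anti-PD-L1 libraries.

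None of the 8 tested genes below triose phosphate was called between CB and isotype by edgeR or DESeq2, and none had an unadjusted p under 0.05. *Gapdh*, whose enzyme makes NADH, had a log2 fold change of -0.07 with a 95% interval from -0.37 to 0.23. *Pkm*, which encodes pyruvate kinase M and yields the last ATP, was between 896 and 980 CPM in isotype libraries and between 1019 and 1042 CPM with CB, which did not overlap, but the log2 fold change was only 0.13 (SE 0.08, adjusted p = 0.424). *Eno1*, enolase, was at -0.06 (SE 0.26) on the same scale, and *Eno3*, the muscle enolase, at 0.43 (SE 0.34), between 9.22 and 26.1 CPM with CB and between 10.1 and 15.6 CPM with isotype. *Pgk1* was at -0.54 (SE 0.36) and *Pgam1* at 0.55 (SE 0.39), both from few reads, with means between 9.31 and 14.8 CPM in these 2 groups. *Bpgm*, which encodes the mutase that makes bisphosphoglycerate, was between 16.2 and 24.0 CPM with CB and between 17.5 and 25.7 CPM with isotype. The median over the 8 genes was -0.02, against 0.37 over the 7 genes of the upper steps. Called were 3 of 7 above triose phosphate and 0 of 8 below it, where 4.29% of all genes tested were. Both lists hold genes with few reads in all, *Pgk1* (2766), *Pgam1* (2291) and *Eno2* (65) below, *Pfkm* (2104) and *Aldoc* (345) above. The difference between these lists was not tested. Named pseudogenes exist for *Gapdh*, *Pgk1*, *Pgam1*, *Ldha* and *Aldoa*, and only uniquely mapped reads were counted, so that the level of these genes is uncertain. Pseudogenes under other names were not searched for.

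**Figure D3:**
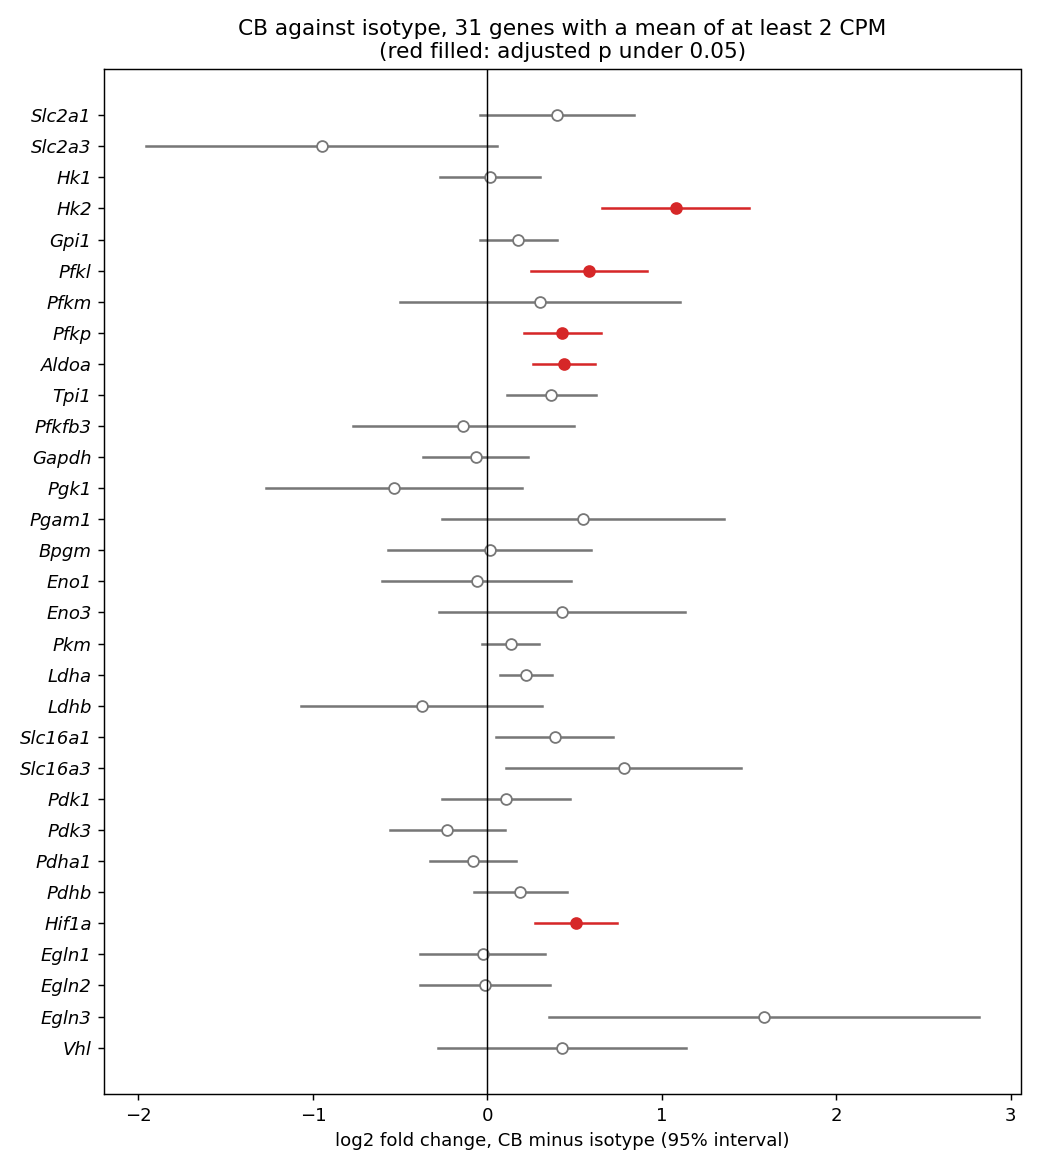
Log2 fold change of CB over isotype (x axis) with its 95% interval for the 31 tested genes that had a mean of at least 2 CPM, in pathway order from top to bottom. The 5 genes called by edgeR are filled in red and lie between 0.43 and 1.08, and the intervals of *Tpi1*, *Ldha*, *Slc16a1*, *Slc16a3* and *Egln3* also exclude 0 without passing the adjusted threshold.

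Lactate dehydrogenase A turns pyruvate into lactate. *Ldha* lay between 1162 and 1320 CPM in isotype libraries and between 1415 and 1530 CPM with CB, without overlap, and its log2 fold change was 0.22 (SE 0.07, adjusted p = 0.0953 in edgeR and 0.0126 in DESeq2). *Ldha* also lay above isotype in every anti-Lag3 library (1323 to 1481 CPM). *Ldhb*, the heart form, was at -0.38 (SE 0.33) on the log2 scale, and *Ldha* made up 98.4 to 99.6% of the reads of the pair in every library.

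The lactate exporters MCT1 and MCT4 are encoded by *Slc16a1* and *Slc16a3*. *Slc16a1* was at 98.0, 70.5 and 105 CPM with CB and at 63.0, 65.6 and 80.9 CPM with isotype, with a log2 fold change of 0.39 (SE 0.16, adjusted p = 0.243). *Slc16a3* was at 18.6, 27.7 and 17.3 CPM with CB and at 7.10, 12.5 and 17.5 CPM with isotype, with a log2 fold change of 0.78 (SE 0.33, adjusted p = 0.233). Both genes overlapped between the groups and neither was called. Of 2 tested partners of these transporters, 1 was called between CB and isotype, where 4.29% of all genes tested were. It was *Bsg*, which encodes basigin, the chaperone of both transporters (log2 fold change 0.54, SE 0.11, adjusted p = 0.00435, edgeR). *Bsg* was at 109, 115 and 107 CPM in isotype libraries and at 163, 157 and 163 CPM with CB. With anti-PD-L1 it was at 134, 142 and 142 CPM and with anti-Lag3 at 137, 116 and 121 CPM. Both single antibody groups thus lay above isotype. Neither partner was called by edgeR between CB and either single antibody.

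Pyruvate dehydrogenase, inside the mitochondrion, turns pyruvate into acetyl-CoA instead, and its kinases hold the enzyme back. Between CB and isotype, none of the 5 tested genes for subunits and kinases was called by edgeR or DESeq2, and none had an unadjusted p under 0.05. *Pdha1* was at -0.08 (SE 0.12) and *Pdhb* at 0.19 (SE 0.13) on the log2 scale. *Pdk1*, the kinase gene known as a HIF target, was at 0.11 with a 95% interval from -0.26 to 0.48, and *Pdk3* at -0.23 (SE 0.16). *Pdk2* had 0 reads in 7 of the 12 libraries.

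Among the genes of oxygen sensing, *Hif1a* (ENSMUSG00000021109, chr12:73901375-73947530, plus strand) was called. It was at 135, 157 and 137 CPM in isotype libraries, at 165, 151 and 169 CPM with anti-PD-L1, at 151, 164 and 182 CPM with anti-Lag3, and at 189, 201 and 219 CPM with CB. All CB libraries were above all others, and the single antibody groups overlapped isotype and each other. The log2 fold change of CB over isotype was 0.51 (SE 0.11, adjusted p = 0.00759, edgeR), from a mean of 143 ± 11.9 to 203 ± 15.0 CPM (SD, n = 3). The adjusted p was 0.0519 without isotype mouse 1 and 0.0636 without CB mouse 3.

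*Egln3* encodes a prolyl hydroxylase that is itself a HIF target. It had the largest fitted difference among the genes of the set above 2 CPM, with 7.95, 3.80 and 1.43 CPM in isotype libraries, 5.46, 5.66 and 7.56 CPM with anti-PD-L1, 1.16, 3.81 and 8.82 CPM with anti-Lag3 and 9.06, 10.5 and 20.1 CPM with CB. All CB libraries were above all others, but the spread was wide and the log2 fold change of 1.58 (SE 0.60) did not pass (adjusted p = 0.174). *Egln1* and *Egln2*, the hydroxylases with more steady expression, were at -0.03 (95% interval -0.39 to 0.33) and -0.01 (-0.39 to 0.36), and *Vhl* was at 0.43 (SE 0.35).

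CB was next set against each single antibody. Between CB and anti-PD-L1, 0.37% of all genes tested were called, and 1 of the 35 genes was, *Hk2*, with a log2 fold change of 0.90 (SE 0.21, adjusted p = 0.0495, edgeR). Between CB and anti-Lag3, 0.694% of all genes were called, and again 1 of the 35 genes, *Hk2*, with 0.87 (SE 0.20, adjusted p = 0.0428). DESeq2 called *Hk2* in both comparisons. Both values stand close to the threshold, and each was lost without any 1 of the 3 CB mice (adjusted p from 0.0874 to 0.261 over anti-PD-L1 and from 0.0667 to 0.217 over anti-Lag3). The first was also lost without anti-PD-L1 mouse 1 (0.136) or 2 (0.244), isotype mouse 1 (0.0553) or anti-Lag3 mouse 2 (0.0629) or 3 (0.0563), and the second without anti-Lag3 mouse 2 (0.206) or 3 (0.272). Over anti-PD-L1 the CB libraries lay apart and higher in 6 of the 35 genes and lower in 0, against 6.94% and 5.75% of all genes tested. Over anti-Lag3 this was so for 10 and 0 genes, against 7.68% and 7.09%. Of the other 4 genes that rose over isotype, *Hif1a* and *Pfkp* had no overlap between CB and either single antibody. Log2 fold changes for *Hif1a* were 0.33 (SE 0.11, adjusted p = 0.314) over anti-PD-L1 and 0.29 (SE 0.11, adjusted p = 0.354) over anti-Lag3. *Aldoa* was at 0.18 (SE 0.09, adjusted p = 0.547) over anti-PD-L1 and at 0.34 (SE 0.09, adjusted p = 0.0618, or 0.0397 without anti-PD-L1 mouse 2) over anti-Lag3, and *Pfkp* at 0.20 (SE 0.11) and 0.36 (SE 0.11).

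Neither single antibody gave a call in the set by edgeR. Between anti-PD-L1 and isotype, 0.033% of all genes were called and 0 of the 35 by edgeR. An unadjusted p under 0.05 was found for 5 of the 35 and for 1187 of the 15138 genes tested. DESeq2 called 1 of the 35, the sparse *Pfkfb4*. The anti-PD-L1 libraries lay apart from isotype and higher in 4 of the 35 genes and lower in 0, against 5.34% and 6.46% of all genes tested. *Aldoa* (0.26, SE 0.09, adjusted p = 0.428) and *Tpi1* (0.34, SE 0.12, adjusted p = 0.491) were among those 5, and their anti-PD-L1 libraries lay above the isotype libraries. Between anti-Lag3 and isotype, 0% of all genes were called by edgeR and 0 of the 35 by edgeR or DESeq2. In edgeR 3 of the 35 and 788 of the 15138 genes tested had an unadjusted p under 0.05. The anti-Lag3 libraries lay apart from isotype and higher in 2 genes and lower in 2, against 5.25% and 4.81%. *Hk2* stood above isotype on the log2 scale by 0.18 (SE 0.21) in the anti-PD-L1 mice and by 0.21 (SE 0.21) in the anti-Lag3 mice, with 95% intervals from -0.24 to 0.61 and from -0.21 to 0.64.

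Whether CB differed from the sum of both single antibodies was tested as an interaction. It was not called for any of the 35 genes, nor for any gene tested (0%), in edgeR, while DESeq2 called 0 of the 35. In edgeR 3 of the 35 and 898 of the 15138 genes tested had an unadjusted p under 0.05. For *Hk2* the interaction on the log2 scale was 0.69 (SE 0.29, 95% interval 0.09 to 1.28, unadjusted p = 0.026, adjusted p = 0.804). For *Hif1a* it was 0.11 (SE 0.16), for *Pfkp* 0.14 (SE 0.15), for *Aldoa* 0.08 (SE 0.12) and for *Pfkl* 0.27 (SE 0.23), all with intervals that include 0. Between anti-PD-L1 and anti-Lag3, 0% of all genes tested and 0 of the 35 were called by edgeR, and 0 of the 35 by DESeq2. There 3 of the 35 and 710 of the 15138 genes tested had an unadjusted p under 0.05 in edgeR. All comparisons with isotype share the same 3 isotype libraries, and those with CB the same 3 CB libraries, so that they are not independent of each other.

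**Figure D4:**
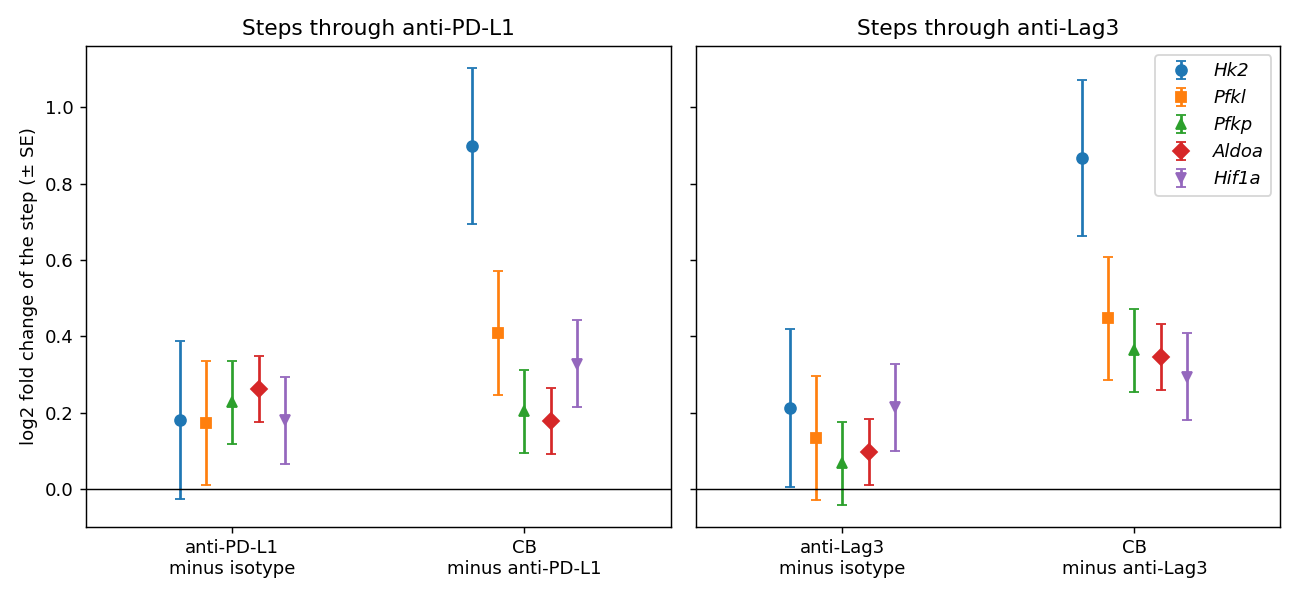
Log2 fold change with SE (y axis) of the 5 called genes for each step from isotype to CB, through anti-PD-L1 (left panel) or through anti-Lag3 (right panel). *Hk2* stands near 0.2 in the first step and near 0.9 in the second step of both panels, while *Aldoa* and *Pfkp* have first and second steps of similar size through anti-PD-L1.

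Genes that lie next to the set in the pathway were read from the same fit. Of 85 such genes 74 were tested, 3 were called higher and 1 lower between CB and isotype by edgeR, where 4.29% of all genes were called, and the median log2 fold change was 0.04. Besides *Bsg*, *Pgd* rose, which encodes phosphogluconate dehydrogenase of the pentose phosphate pathway (0.52, SE 0.12, adjusted p = 0.0081). It went from 121, 120 and 108 CPM in isotype libraries to 177, 152 and 171 CPM with CB. With anti-PD-L1 it was at 161, 165 and 138 CPM and with anti-Lag3 at 161, 137 and 149 CPM. Both of these groups lay above isotype and overlapped CB. The other 8 of 9 genes of that pathway were not called between CB and isotype. *Fam162a*, a HIF target at mitochondria, rose from 73.5, 67.8 and 79.4 CPM to 110, 147 and 148 CPM (0.88, SE 0.19, adjusted p = 0.005). It was at 53.8, 116 and 101 CPM with anti-PD-L1, which overlapped both isotype and CB. With anti-Lag3 it was at 119, 97.5 and 105 CPM, above isotype and overlapping CB. It was the 1 gene called of 16 tested HIF targets outside glycolysis. *Bnip3*, another of them, had a log2 fold change of 1.66 that was not called (adjusted p = 0.0816, edgeR). With 1 mouse left out it was called only without isotype mouse 3 (adjusted p = 0.0217). The adjusted p rose to 0.243 without isotype mouse 1 and to 0.294 without isotype mouse 2. It was 0.158 without CB mouse 2 and 0.291 without CB mouse 3.

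*Foxo1*, a transcription factor of resting T cells that AKT signals keep out of the nucleus, fell from 257, 227 and 224 CPM to 150, 166 and 163 CPM (log2 fold change -0.56, SE 0.11, adjusted p = 0.00203). It was also lower in CB than in anti-PD-L1 libraries, which were at 216, 215 and 239 CPM (-0.49, SE 0.11, adjusted p = 0.0443). The anti-Lag3 libraries, at 170, 204 and 190 CPM, lay below isotype and above CB. Between CB and anti-Lag3 none of the 74 tested genes next to the set was called by edgeR, *Foxo1* included. Between CB and isotype, edgeR and DESeq2 called none of the 15 genes of the tricarboxylic acid cycle or 8 of pyruvate entry. Both tests also called none of the 8 of the HIF pathway outside the set or 7 further isoenzymes. In the same order, 1, 0, 1 and 0 of these genes had an unadjusted p under 0.05 in edgeR. No other gene of the 9 for upstream control, which include *Myc*, *Mtor* and *Txnip*, passed the test.

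T cell markers (*Cd3d*, *Cd3e*, *Cd3g*, *Cd4*, *Trac*, *Cd28*, *Lat*) summed to 2339 to 2547 CPM in isotype libraries and to 2146 to 2264 CPM with CB, without overlap. They summed to 2201 to 2524 CPM in anti-PD-L1 libraries and to 2372 to 2399 CPM in anti-Lag3 libraries. Between CB and isotype 2 of the 7 were called lower, *Cd3e* by a log2 fold change of -0.39 (SE 0.11, adjusted p = 0.0401, edgeR) and *Cd4* by -0.50 (SE 0.12, adjusted p = 0.00918). Erythroid markers, mostly haemoglobin, summed to 245 to 452 CPM in isotype libraries and to 152 to 200 CPM with CB, with 2 of 7 genes called. They summed to 172 to 218 CPM in anti-PD-L1 libraries and to 218 to 291 CPM in anti-Lag3 libraries. B cell markers summed to 342 to 474 CPM, nearly all from *Ighm* and *Igkc*, with *Cd79a* at 0 in 7 of the 12 libraries. Summed markers of CD8 T cells were between 40.9 and 45.3 CPM in isotype libraries and between 25.0 and 33.2 CPM with CB, with 0 of 2 called by edgeR and 1 at an unadjusted p under 0.05. In all libraries they were between 24.6 and 46.4 CPM, those of myeloid cells between 5.24 and 25.5 CPM, and those of NK cells, dendritic cells and platelets at most 5.50 CPM. The part of these transcripts in the results was not tested.

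**Figure D5:**
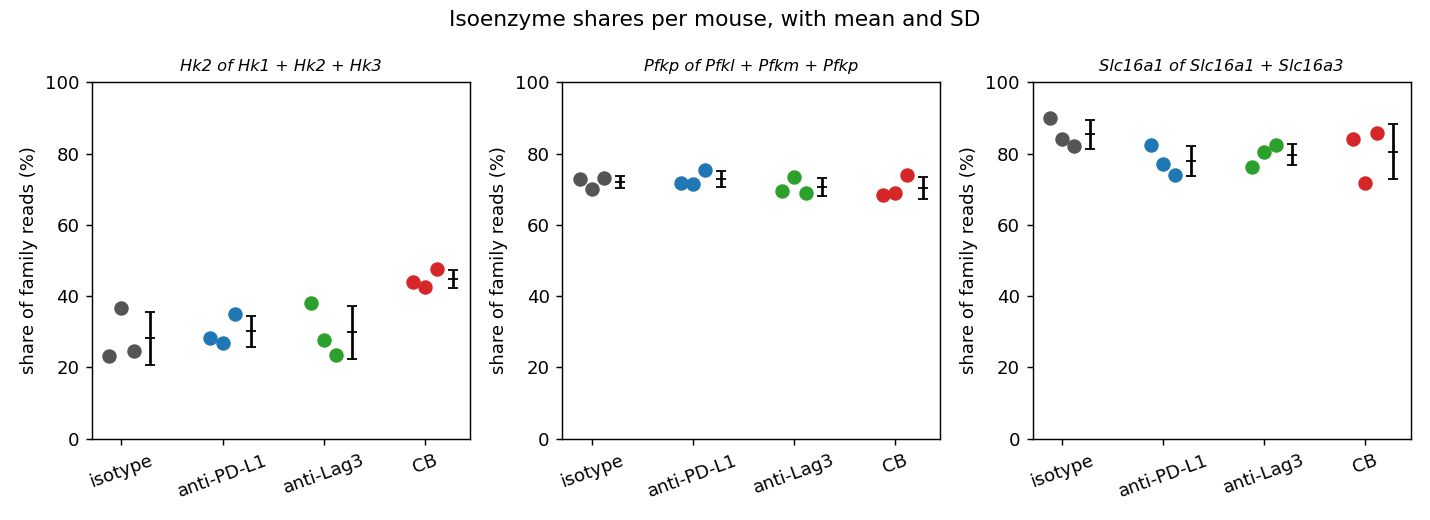
Share of reads (y axis, 0 to 100%) of *Hk2* among hexokinase genes, *Pfkp* among phosphofructokinase genes and *Slc16a1* among the monocarboxylate transporter genes of the set, per mouse (points) with group mean and SD (bars). The *Hk2* share of the CB mice lies between 42.6 and 47.5%, above all 9 other mice, and the groups overlap in the other 2 panels.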

How the data were processed

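Messenger RNA of sorted splenic responder cells was sequenced from 12 mice with QuantSeq, a 3′ end method, without molecular identifiers. Per the methods of the study, the authors trimmed reads with Cutadapt 1.18, aligned them to GRCm38 with STAR 2.6.1a and used FeatureCounts 1.6.4 to count, per gene, the reads that mapped to 1 place. The annotation release and the use of strand were not given in the sources used here. The deposited counts are whole reads per gene without normalization, and every column was used. The deposited log2 (rlog) table was not used.

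Counts of 15138 genes with 30 or more reads in sum were scaled with TMM and fitted in edgeR 4.0.16 (R 4.3.3) as 4 group means over all 12 libraries. The quasi-likelihood test and Benjamini-Hochberg adjustment over all genes, with a threshold of 0.05, gave the calls. Spike-ins were left out of the library sizes and took 0.719 to 1.29% of reads. Shares within a gene family were compared with exact two-sided permutation tests. Symbols and positions came from GENCODE M21 and promoters from RefSeq. Libraries of 1 group differed by more than sampling noise (chi-square per degree of freedom of 23.3 to 63.7), so none was counted as a duplicate.

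Group members came from the sample labels, and each library is a separate mouse. All 37 members are accounted for, with every library's value for those called in at least 1 comparison and their isoenzymes, and neighbour genes are given values where called between CB and isotype. Values of *Egln3* and of the lactate exporters in each library, and *Bnip3*, were added after their values were seen. The members and lists were chosen with earlier results of these data known. Alternatives were DESeq2 1.42.0, tests against a log2 fold change of 0.2, DESeq2 size factors, other count filters, a replicate block, only the groups compared and each library left out.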

Additional observations from a re-analysis of the deposited data

How the results depend on the processing

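In the comparison of CB with isotype the number of genes of the set that were called, 5 in edgeR, was 6 with DESeq2, 2 with edgeR against a log2 fold change of 0.2 (*Hk2* and *Aldoa*), 1 with DESeq2 against 0.2 (*Hk2*) and 4 with only the groups compared (without *Pfkl*), and from 3 to 5 with 1 mouse left out. *Hk2* and *Aldoa* were called in that comparison with each mouse left out. Over anti-PD-L1 the 1 call became 2 with DESeq2, and 0 with either test against 0.2, with DESeq2 size factors, with filterByExpr or with only the groups compared. It was 0 to 1 with 1 mouse left out. Over anti-Lag3 the 1 call became 3 with DESeq2, 2 without a filter and 0 with either test against 0.2, and 0 to 2 with 1 mouse left out. Between anti-PD-L1 and isotype DESeq2 called 1. Of the neighbour genes 4 were called, and 1 with DESeq2 against 0.2.

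Whether a replicate number marks a sort batch was not given in the sources used here, so the numbers were not taken to pair the mice. Deviations from the group means correlated between -0.05 and 0.07 for equal numbers (median 0.029) and between -0.09 and 0.05 for unequal ones (median -0.0072). Mice numbered 1 gave 0.0017 to 0.069 and those numbered 3 gave 0.015 to 0.055. Those numbered 2 gave -0.045 to 0.054. Whether these differences reflect sort batches was not tested. With the replicate number as a block, 7 genes of the set were called between CB and isotype, which added *Tpi1* (adjusted p = 0.0488) and *Ldha* (adjusted p = 0.0485). Between CB and anti-Lag3, 2 were called, which added *Aldoa* (adjusted p = 0.0179). The adjusted p of *Hk2* with the block was 0.0123 over anti-PD-L1 and 0.0113 over anti-Lag3 (edgeR). *Bnip3* was called over isotype as well (adjusted p = 0.0218), and calls among all genes went from 649 to 843, from 56 to 137 and from 105 to 208 in the comparisons of CB with isotype, anti-PD-L1 and anti-Lag3. The block turned the sign of the uncalled *Bpgm* (to -0.026) and *Eno2* (to 1.72).

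With 1 mouse left out, signs of log2 fold changes near 0 or from few reads turned, none of them called. Between CB and isotype these spanned -0.10 to 0.18 for *Hk1*, -2.82 to 0.89 for *Aldoc*, -0.41 to 0.059 for *Pfkfb3*, -0.10 to 0.20 for *Bpgm*, -0.26 to 0.14 for *Eno1*, -2.25 to 3.99 for *Eno2*, -0.15 to 0.0083 for *Pdha1*, -0.10 to 0.021 for *Egln1* and -0.064 to 0.040 for *Egln2*. Without CB they spanned, for *Hk2*, -0.0026 to 0.37 (anti-PD-L1 over isotype), -0.031 to 0.40 (anti-Lag3 over isotype) and -0.21 to 0.21 (anti-PD-L1 over anti-Lag3), for *Pfkp* -0.020 to 0.11 (anti-Lag3 over isotype), and for *Pfkl* -0.059 to 0.14 and *Hif1a* -0.098 to 0.039 (anti-PD-L1 over anti-Lag3). The cause of these changes was not tested. With 3 mice per group, an exact test of shares cannot pass 0.05, and 4 of the 35 tested genes rest on fewer than 400 reads in all.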
